A study of Mus musculus with 12 samples.

Results

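Retinoic acid alone was compared directly with transforming growth factor beta (TGFb) alone in cultured mouse CD8 T cells, over all genes. The comparison takes the 3 libraries labelled with retinoic acid (RA) and the 3 labelled with TGFb, 6 of the 12 libraries in the series. CD8 T cells from the spleen of C57BL/6 mice, a wild-type inbred strain, were cultured, and RNA was isolated on day 7. RA cultures received IL-2, IL-15 and all-trans RA, TGFb cultures received IL-2, IL-15 and TGFb, and cultures with neither factor received IL-2 and IL-15, the cytokines that all groups shared. Another group of 3 libraries received both factors, and the series title names the making of tissue-resident memory T cells in culture as the aim. The labels give no dose, no method of activation or purification and no age of the animals. They call the samples biological replicates without saying whether each came from a separate animal. The p-values below are therefore judged against the spread between samples within the 4 groups, which may not be that between animals.

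RA, made from vitamin A by gut dendritic and epithelial cells, enters cells and binds nuclear receptors (the RAR and RXR proteins) that sit on DNA. In T cells it is best known for inducing the receptors that send cells to the intestine. TGFb is a secreted cytokine that signals through a pair of kinase receptors to SMAD transcription factors. In CD8 T cells it induces the integrin CD103 (Itgae), which holds cells at the epithelium, and it dampens killing and the T-box transcription factors. The direct comparison sets the signals against each other and is not a comparison with untreated cells.

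Levels are CPM, the count of a gene relative to the size of its library, scaled by the trimmed mean of M-values, and log2 fold changes are RA minus TGFb, so a positive value means higher with RA. A gene was called at an adjusted p under 0.05 in the quasi-likelihood test of edgeR, and ± is the SD for levels and the SE for log2 fold changes. The 6 libraries held 21359384 to 27560208 counts. The first principal component of the 6 libraries held 83.1% of the variance and separated RA (48.9 to 59.0) from TGFb (-55.6 to -54.9). RA replicate 3 stood apart from the others of its group on the second (-30.9, against 24.0 and 4.19 in RA replicates 1 and 2). The median SD of log2 CPM was 0.129 over the RA libraries and 0.0827 over the TGFb libraries, so values were tighter within TGFb. Ribosomal protein genes took 9.39% ± 0.702 of counts in RA libraries and 5.69% ± 0.134 in TGFb libraries (SD, n = 3 each, exact permutation p = 0.1, the smallest that 3 against 3 allows). All 8 CD8 T cell markers were expressed highly enough to test, and they summed to 5824 to 5976 CPM in RA libraries and 8192 to 8564 CPM in TGFb libraries, and their part in the results below was not tested.

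Of 14009 genes tested, 7365 (52.6%) were called: 3623 (25.9%) were higher and 3742 (26.7%) lower with RA than with TGFb. With a change of at least 2-fold required as well, 1858 (13.3%) remained, 788 (5.62%) higher and 1070 (7.64%) lower. The 3 RA values did not overlap the 3 TGFb values for 8156 genes (58.2%), with the RA values above for 28.8% and below for 29.5%. The median log2 fold change of all tested genes was -0.02, so counts of members below are read against these shares and that median. Without RA replicate 3 the counts were 3932 higher and 3828 lower. In the same model, RA against IL-2 + IL-15 called 3740 genes (26.7%) and TGFb against IL-2 + IL-15 called 6034 (43.1%). Those comparisons share libraries with each other and with the direct one, so their values are only set side by side below.

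**Figure D1:**
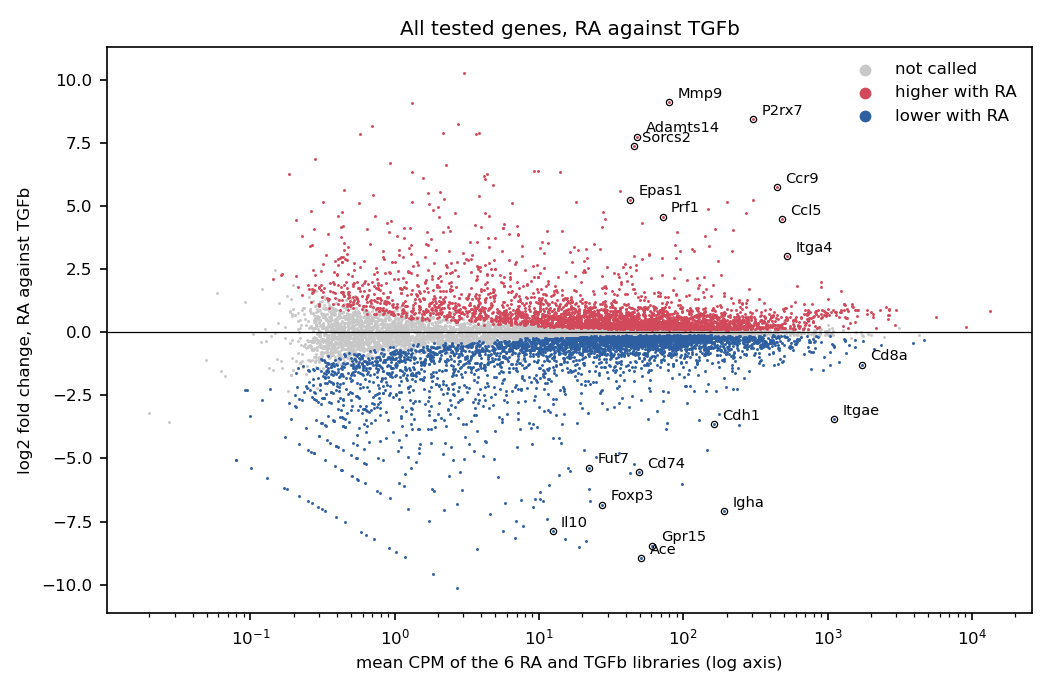
Each point is a tested gene, with its mean CPM over the 6 libraries on a log x axis and its log2 fold change of RA against TGFb on the y axis. Red points were called higher with RA, blue points lower and grey points were not called; Mmp9 and P2rx7 lie near the top and Ace and Gpr15 near the bottom of the named genes.

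Taking the called genes whose mean reached 5 CPM and whose groups did not overlap, the 12 highest and the 12 lowest log2 fold changes were chosen, so their folds and their separation describe how they were chosen. The 12 highest with RA included genes for secreted proteases, an ATP-gated channel and a gut homing receptor. Mmp9, a gelatinase that cuts extracellular matrix, had 227, 161 and 87.9 CPM in RA cultures, against 0.383, 0.247 and 0.2 CPM in TGFb cultures, a log2 fold change of 9.13 ± 0.50 (adjusted p = 8.8e-09). P2rx7, an ion channel opened by extracellular ATP, had 633, 659 and 542 CPM in RA cultures and 1.19, 1.64 and 2.44 CPM in TGFb cultures (8.44 ± 0.18, adjusted p = 1.0e-12). Both genes were near background with TGFb, and every RA library lay far above every TGFb library. Adamts14, a protease that trims procollagen, had 119, 117 and 52.5 CPM with RA and 0.306, 0.452 and 0.561 CPM with TGFb (7.76 ± 0.50). Sorcs2, a sorting receptor of the sortilin family, had 112, 91.4 and 67.8 CPM with RA and 0.613, 0.493 and 0.521 CPM with TGFb (7.37 ± 0.24). Epas1, which encodes the hypoxia-inducible factor HIF-2 alpha, had 106, 96.1 and 47.8 CPM with RA and 2.53, 1.81 and 2.16 CPM with TGFb (5.26 ± 0.35). RA replicate 3 was the lowest RA library for Mmp9, P2rx7, Adamts14, Sorcs2 and Epas1, and still lay above all TGFb libraries.

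The other genes among the 12 highest were Igsf5, Grtp1, Ccr9, Itih5, Gp49a, Lilrb4 and Klrb1c, with log2 fold changes of 5.18 to 6.41. Gp49a and Lilrb4 encode immunoglobulin-like receptors and are near-identical copies, so reads may have been split between them. Gp49a had 655, 589 and 533 CPM with RA and 18.7, 13.9 and 13.9 CPM with TGFb. Lilrb4 had 431, 384 and 354 CPM with RA and 11.4, 9.91 and 10.8 CPM with TGFb, so the pair moved alike. Klrb1c, the gene of the NK1.1 receptor, varied among the RA libraries, with 53.0, 35.8 and 16.9 CPM against 1.42, 0.247 and 1.20 CPM with TGFb. Igsf5, an adhesion molecule of cell junctions, had a log2 fold change of 6.41 ± 0.33, which became 7.09 without TGFb replicate 3.

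At the other end, the genes lowest with RA relative to TGFb were mostly near 0 in RA cultures and expressed with TGFb. Ace, the angiotensin-converting enzyme, had 0.273, 0.188 and 0.143 CPM with RA and 116, 91.7 and 98.1 CPM with TGFb (-8.95 ± 0.16, adjusted p = 7.8e-13). Il10, an anti-inflammatory cytokine, had 0, 0.0752 and 0.238 CPM with RA and 22.4, 24.4 and 27.7 CPM with TGFb (-7.88 ± 0.32, or -9.07 without RA replicate 3). Foxp3, the transcription factor that defines regulatory T cells, had 0.364, 0.564 and 0.476 CPM with RA and 52.8, 57.2 and 53.1 CPM with TGFb (-6.83 ± 0.23). For all 3 genes the groups lay far apart, and the fold rests on few counts in the RA libraries. Adcy5, an adenylate cyclase, had 0.273, 0.113 and 0 CPM with RA and 48.3, 39.9 and 37.9 CPM with TGFb (-8.29 ± 0.27, or -9.26 without RA replicate 1). Mcpt1, a mast cell protease, had 0.091, 0.15 and 0.0476 CPM with RA and 27.6, 14.5 and 49.3 CPM with TGFb (-8.18 ± 0.86), and its TGFb values varied between libraries. Cx3cr1, the fractalkine receptor, Dlk1, a transmembrane protein resembling Notch ligands, and Endou, an endoribonuclease, had log2 fold changes of -7.66, -7.49 and -7.39.

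Igha, the constant region of the IgA heavy chain, had 3.87, 1.62 and 3.00 CPM in RA cultures and 384, 397 and 359 CPM in TGFb cultures (-7.10 ± 0.19, adjusted p = 5.5e-12). In B cells this locus is transcribed before the switch to IgA, a step that TGFb induces. Ighm, the IgM constant region, had 454, 399 and 624 CPM with RA and 1371, 1387 and 1354 CPM with TGFb (-1.48 ± 0.15). Beside these, the B cell genes Ms4a1 and Pax5 had 0 or 1 count in each of the 6 libraries. The 5 B and plasma cell markers tested (of 8) summed to 417 to 647 CPM with RA and 1411 to 1444 CPM with TGFb. Nearly all of that was Ighm. Of the 5 markers tested, 0 were higher and 4 lower with RA, namely Ighm, Jchain, Ighd and Cd79b. Jchain, which joins IgA and IgM into polymers, had 1.59, 0.113 and 0.809 CPM with RA and 7.54, 6.37 and 5.37 CPM with TGFb (-2.99 ± 0.46, or -3.88 without RA replicate 1 and -2.40 without RA replicate 2). Ighd, the IgD constant region, had 2.18, 1.73 and 5.47 CPM with RA and 20.1, 22.6 and 22.5 CPM with TGFb (-2.83 ± 0.34, or -3.47 without RA replicate 3). Cd79b, a signalling chain of the B cell receptor, was lower by less (-0.80 ± 0.10), and the part of B cells in these values was not tested.

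**Figure D2:**
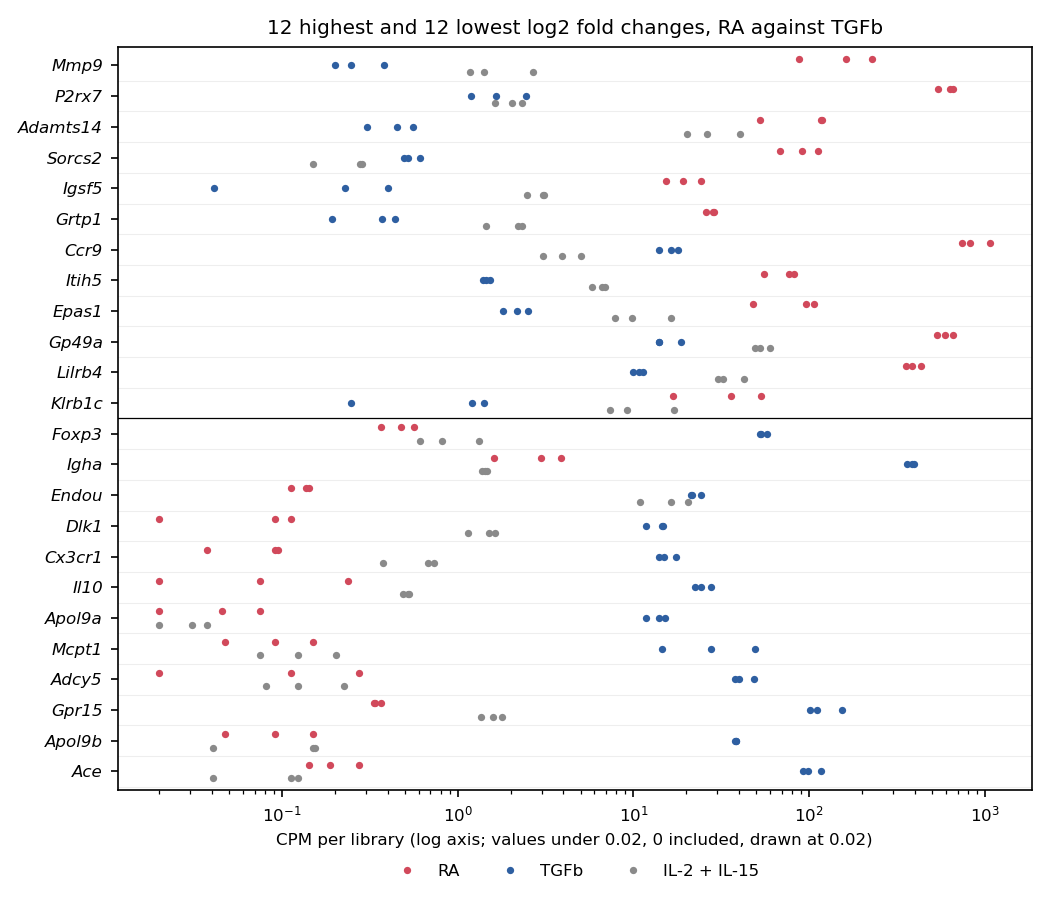
CPM of each library on a log x axis for the 12 genes with the highest (top) and the 12 with the lowest (bottom) log2 fold change of RA against TGFb, with IL-2 + IL-15 libraries in grey. In each row the 3 RA points (red) and the 3 TGFb points (blue) do not overlap, as the choice required. Endou is the only gene of the lower set whose IL-2 + IL-15 points lie near the TGFb points.

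Promoter windows of 4 of these genes, which stand at the ends of the comparison, are shown. For 3 of them, the window shown holds the AGGTCA hexamer that nuclear receptors such as RAR bind as repeats. The genes were chosen after their values and motifs were seen. Where a gene had several windows, the one with the most motifs, then the longest, was shown. The sequences are from RefSeq on GRCm38.p6, read 5′ to 3′ on the gene's strand within the 250 bases before a start, without the gene's own exons or any UTR. Capitals mark AGGTCA or its complement TGACCT. Ccr9 is shown over chr9:123766961-123767168 (plus strand) and P2rx7 over chr5:122650133-122650382 (plus strand), both before a start that lies inside the span of the gene. Apol9a is shown over chr15:77411136-77411330 (minus strand) and Apol9b over chr15:77728822-77729038 (plus strand).
Ccr9: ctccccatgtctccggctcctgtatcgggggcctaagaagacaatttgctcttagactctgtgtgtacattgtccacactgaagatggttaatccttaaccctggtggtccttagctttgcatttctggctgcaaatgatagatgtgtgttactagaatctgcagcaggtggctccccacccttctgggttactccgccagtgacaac
P2rx7: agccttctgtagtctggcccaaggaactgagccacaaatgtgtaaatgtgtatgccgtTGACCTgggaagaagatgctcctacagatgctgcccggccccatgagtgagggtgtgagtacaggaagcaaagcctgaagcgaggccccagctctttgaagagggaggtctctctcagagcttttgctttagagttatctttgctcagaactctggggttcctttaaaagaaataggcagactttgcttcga
Apol9a: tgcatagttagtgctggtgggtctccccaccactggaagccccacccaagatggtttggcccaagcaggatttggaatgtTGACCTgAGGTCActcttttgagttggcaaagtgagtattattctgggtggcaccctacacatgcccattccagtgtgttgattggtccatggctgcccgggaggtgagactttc
Apol9b: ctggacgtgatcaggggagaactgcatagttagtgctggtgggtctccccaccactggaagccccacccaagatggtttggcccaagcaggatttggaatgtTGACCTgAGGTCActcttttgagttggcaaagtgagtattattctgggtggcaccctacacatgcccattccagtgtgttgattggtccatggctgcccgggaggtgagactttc

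The promoter windows of Apol9a and Apol9b, apolipoprotein L genes on chromosome 15, matched at 195 of 195 aligned bases (100%), and each holds TGACCTgAGGTCA, the hexamer on either strand with 1 base between. Their transcripts were not compared. Apol9b had 0.091, 0.15 and 0.0476 CPM with RA and 38.3, 37.7 and 38.2 CPM with TGFb (-8.50 ± 0.22). Apol9a had 3 counts over the RA libraries and 1033 over the TGFb libraries, a ratio of TGFb over RA of 318 (exact 95% interval 108 to 1544, counting error only). P2rx7 held the hexamer 192 to 187 bases before the start of the window shown. Its other window (chr5:122643677-122643926, plus strand) held none of the motifs searched. Ccr9 held none of them in the window shown.

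Over the 300-base windows of all promoters in the table (32851 windows of 27025 genes), AGGTCA stood in 16.3% on either strand. Among the 12 genes highest with RA, 6 had a promoter in the table, with 7 windows, of which 2 held it. Among the 12 lowest, 9 genes had 13 windows, of which 6 held it. Of those 6, 4 were overlapping windows of Apol9a and Apol9b, which share 1 sequence there, and the others were from Ace and Foxp3. Direct repeats of AGGTCA with 1, 2 or 5 bases between, each of which contains the hexamer, were in 0 windows of either set, and in 0.0396% (1 base between), 0.00913% (2 bases) and 0.00913% (5 bases) of all windows. The SMAD motifs stood in 0.213% (GTCTAGAC), 21.04% (CAGACA) and 11.9% (GGCGCC) of all windows. CAGACA was in 2 and GGCGCC in 1 window of the highest set, and each of the SMAD motifs was in 0 windows of the lowest set. Such matches describe letters in these windows only.

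Ccr9 and Gpr15, gut homing receptors, differed in opposite directions. Ccr9, the receptor for the small intestinal chemokine CCL25 (chr9:123678439-123784330), had 743, 825 and 1075 CPM in RA cultures and 13.9, 18.0 and 16.5 CPM in TGFb cultures, a log2 fold change of 5.77 ± 0.16 (adjusted p = 1.1e-11). Gpr15, a receptor that guides T cells to the large intestine, had 0.364, 0.338 and 0.333 CPM in RA cultures and 154, 111 and 100.78 CPM in TGFb cultures (-8.45 ± 0.22, adjusted p = 4.9e-12). Ccr9 was among the 12 highest and Gpr15 among the 12 lowest genes, a choice that required groups without overlap. In cultures with neither factor Ccr9 averaged 3.998 CPM and Gpr15 1.57 CPM, below the TGFb level of each gene. Exons of genes on the other strand cover 19.0% of the exon bases of Ccr9 and 12.5% of those of Gpr15, and the strand setting of the counting is not given in the sources used here. Of the 5 gut homing genes tested, 2 were higher and 3 lower with RA (median -0.29).

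The integrins also differed by partner. Itga4, the alpha 4 chain that pairs with beta 7 to bind the gut addressin MAdCAM-1, had 979, 783 and 1058 CPM with RA and 111, 122 and 111 CPM with TGFb (3.03 ± 0.14). Itgae, the CD103 chain that pairs with beta 7 to bind E-cadherin, had 129, 157 and 277 CPM with RA and 2021, 2062 and 2001 CPM with TGFb (-3.43 ± 0.24, adjusted p = 7.7e-08). Their shared partner Itgb7 was at 1212, 1141 and 1219 CPM with RA and 1529.5, 1389.7 and 1437 CPM with TGFb (-0.29 ± 0.06). So the shared chain differed by far less than its partners, and all were called. Cdh1, which encodes E-cadherin itself, had 33.1, 28.4 and 10.8 CPM with RA and 304, 301 and 302 CPM with TGFb (-3.64 ± 0.26). Itga1, the CD49a chain that binds collagen, had 95.5, 82.4 and 42.3 CPM with RA and 14.5, 10.4 and 11.5 CPM with TGFb (2.6 ± 0.26). Cdh1 and Itga1 thus lay on opposite sides of the comparison. Itgax (CD11c) and Itgb3 were higher with RA as well, with log2 fold changes of 4.10 ± 0.24 and 2.20 ± 0.17, and Itgb4, a laminin-binding chain, was lower (-3.62 ± 0.24). Of 21 integrins tested, 10 were higher and 6 lower with RA (median 0.41).

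Receptors for inflamed tissue followed another pattern. Ccr2, the receptor for monocyte chemoattractants, had 391, 247 and 228 CPM with RA and 12.4, 7.73 and 8.97 CPM with TGFb (4.89 ± 0.23). In cultures with neither factor Ccr2 had 331, 267 and 240.3 CPM, close to the RA values and far above the TGFb values. Fut7, the fucosyltransferase that completes selectin ligands, had 1.502, 1.05 and 0.618 CPM with RA, 45.9, 41.7 and 43.7 CPM with TGFb and 36.2, 33.1 and 31.0 CPM with neither factor (-5.36 ± 0.15 for RA against TGFb). It was therefore the RA value that lay apart for Fut7. Ccr8, a skin homing receptor, had 0.228, 0.338 and 0.285 CPM with RA and 7.93, 8.72 and 11.8 CPM with TGFb (-5.02 ± 0.28). Cxcr3 and Cxcr6 were higher with RA by 0.58 ± 0.10 and 0.95 ± 0.11 on the log2 scale. Of 15 genes of this list tested, 7 were higher and 7 lower with RA (median -0.25).

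A list of genes linked to tissue exit and recirculation was mostly lower with RA than with TGFb: 16 of 21 tested were lower and 3 higher (median -0.77). The list also held genes with no direct part in tissue exit, so this is not a count of exit genes alone. S1pr1, the receptor that draws cells out of tissue along sphingosine phosphate, had 148, 104 and 125 CPM with RA and 328, 298 and 303 CPM with TGFb (-1.30 ± 0.11). Klf2, the transcription factor that drives S1pr1, had 31.8, 12 and 36.0 CPM with RA and 198, 172 and 183 CPM with TGFb (-2.81 ± 0.29). The lymph node receptor Ccr7 had 91.9, 98.3 and 145 CPM with RA and 320.0, 339.6 and 366 CPM with TGFb (-1.62 ± 0.14). None of these 3 genes overlapped between the groups. Tcf7, which encodes the memory factor TCF-1, had 438, 434 and 867 CPM with RA and 966, 1010.3 and 1012 CPM with TGFb (-0.78 ± 0.21), with RA replicate 3 well above the other RA libraries.

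**Figure D3:**
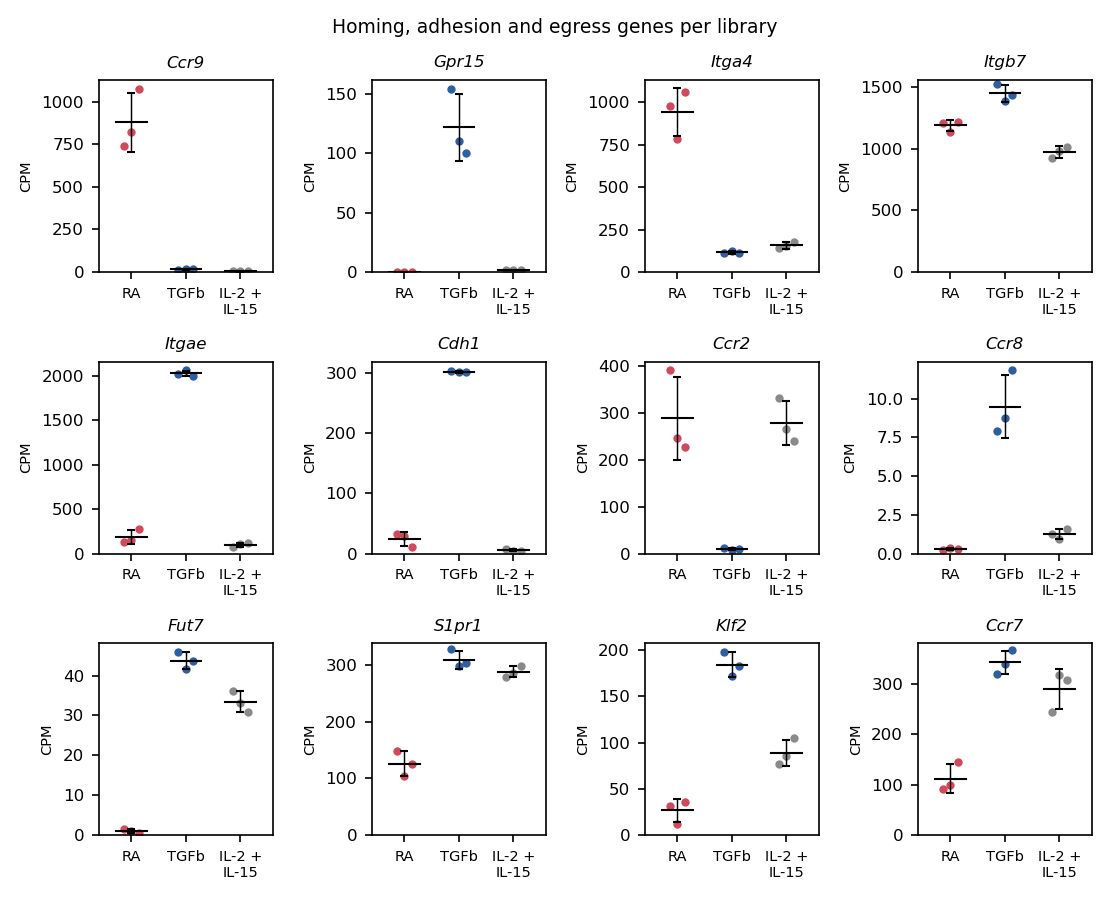
CPM per library for 12 homing, adhesion and egress genes in RA (red), TGFb (blue) and IL-2 + IL-15 (grey) cultures, on linear y axes from 0; the long bar is the mean and the error bar the SD of 3 libraries. Ccr9, Itga4 and Ccr2 are higher with RA, while Gpr15, Itgae, Cdh1, Ccr8, Fut7, S1pr1, Klf2 and Ccr7 are higher with TGFb.

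Genes linked to tissue residency did not move as a block. Of 35 tested, 9 were higher and 21 lower with RA than with TGFb (median -0.63). Zfp683, which encodes the residency factor Hobit, had 26.0, 26.3 and 29.7 CPM with RA and 1.72, 1.64 and 1.72 CPM with TGFb (4.01 ± 0.16, adjusted p = 2.8e-10). Bhlhe40, a repressor needed by resident cells, had 382, 316 and 219 CPM with RA and 42.3, 42.4 and 46.0 CPM with TGFb (2.81 ± 0.16). Both transcription factor genes were higher with RA, whereas the adhesion genes Itgae and Cdh1 were higher with TGFb. Adgrg1, the receptor GPR56, had 3.09, 2.78 and 1.57 CPM with RA and 76.4, 64.6 and 68.2 CPM with TGFb (-4.80 ± 0.20). Prdm1, which encodes Blimp-1, was not called (0.12 ± 0.11, adjusted p = 0.375), and without RA replicate 3 it was called at 0.25. Cd69, which keeps S1PR1 off the surface, had 27.5, 27.98 and 24.6 CPM with RA and 25.4, 21.8 and 20.8 CPM with TGFb. Its log2 fold change of 0.24 ± 0.08 lost the call without RA replicate 1 or 2 or TGFb replicate 2 or 3 (0.18 to 0.23). Runx3, a CD8 lineage and residency factor, was lower with RA (-0.63 ± 0.07).

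Several retinoid response genes were higher with RA, while the receptor genes Rara, Rarg and Rxra were lower. Cyp26b1, the enzyme that breaks RA down, had 6.78, 5.87 and 15.9 CPM with RA and 0.0766, 0.206 and 0.2 CPM with TGFb (5.85 ± 0.50). Dhrs3, a retinal reductase, had 12.9, 8.72 and 10.3 CPM with RA and 0.421, 0.74 and 0.641 CPM with TGFb (4.14 ± 0.24). Tgm2, a transglutaminase with an RA-responsive promoter, had 36.5, 69.4 and 55.9 CPM with RA and 0.996, 1.93 and 3.08 CPM with TGFb (4.76 ± 0.38). RA replicate 3 had the highest Cyp26b1 value of the RA libraries and RA replicate 1 the lowest Tgm2 value. Hic1, a repressor that RA induces in gut T cells, had 133, 99.6 and 79.1 CPM with RA and 13.6, 12.01 and 10.9 CPM with TGFb (3.09 ± 0.16). Rara, Rarg and Rxra had log2 fold changes of -1.65 ± 0.07, -2.28 ± 0.06 and -2.09 ± 0.25, and Rxrb was slightly higher (0.18 ± 0.04). Rarg, for example, had 9.19, 9.25 and 9.61 CPM with RA, 45.7, 43.9 and 46.6 CPM with TGFb and 30.4, 29.7 and 28.3 CPM with neither factor. Stra6, the membrane receptor that takes up retinol, had 1.91, 1.96 and 1.19 CPM with RA and 0.0766, 0.123 and 0.04 CPM with TGFb (4.33 ± 0.40). Of the 20 genes of this list tested, 10 were higher and 5 lower with RA (median 0.14), and 10 members were too low to test, Rarb and Cyp26a1 among them.

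The TGFb pathway showed its feedback genes higher with TGFb. Pmepa1, an inhibitor of SMAD signalling, had 9.15, 9.81 and 10.3 CPM with RA and 107, 98.8 and 108 CPM with TGFb (-3.42 ± 0.08, adjusted p = 2.0e-12). Ldlrad4, a related inhibitor, had 13.7, 10.3 and 11.2 CPM with RA and 144, 142 and 141 CPM with TGFb (-3.61 ± 0.07), although exons on the other strand cover 52.1% of its exon bases. Skil, the SnoN repressor, and Smad7, an inhibitory SMAD, were lower with RA (-1.80 ± 0.06 and -1.04 ± 0.07). These genes varied little among the libraries of a group. Receptors were lower with RA too, at -0.89 ± 0.05 for Tgfbr2 and -2.68 ± 0.24 for Tgfbr3, while Tgfbr1 was not called (0.14 ± 0.08, adjusted p = 0.143; called at 0.22 without RA replicate 3). Smad3, which carries the signal to DNA, went the other way, with 116, 125 and 116 CPM in RA cultures and 24.5, 23.9 and 26.1 CPM in TGFb cultures (2.26 ± 0.06). Id2, a target that TGFb represses, had 339.7, 338 and 229.7 CPM with RA and 66.7, 56.1 and 62.3 CPM with TGFb (2.29 ± 0.14). In all, 7 of 31 genes tested were higher and 19 lower with RA (median -0.80).

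Killing machinery was higher with RA: 17 of 22 genes tested were higher and 3 lower (median 1.61, against -0.02 for all genes). Prf1, the pore protein perforin, had 169.9, 171 and 73.8 CPM with RA and 5.17, 5.06 and 6.97 CPM with TGFb (4.59 ± 0.32, adjusted p = 7.9e-08). Gzmb, the main caspase-activating granzyme, had 2535, 1984 and 1133 CPM with RA and 664, 531 and 618 CPM with TGFb (1.64 ± 0.23). Gzmc had 627, 394 and 152 CPM with RA and 47.1, 32.7 and 45.2 CPM with TGFb (3.23 ± 0.49). RA replicate 3 was the lowest RA library for each of these genes, and no RA value reached down to the TGFb range. Gzmd, a neighbour of Gzmc in the granzyme cluster, had 530 counts over the RA libraries and 2 over the TGFb libraries, a ratio of 287 (exact 95% interval 79.1 to 2377, counting error only). Gzma did not pass (1487, 681 and 428 CPM with RA, 625, 561 and 694 CPM with TGFb, adjusted p = 0.214) and its groups overlapped; its log2 fold change of 0.47 ± 0.30 was 0.80 and called without RA replicate 3, and -0.16 and not called without RA replicate 1. The serpins that shield killer cells from their own granzymes were higher with RA, with 2.48 ± 0.15 for Serpinb9 and 3.99 ± 0.23 for Serpinb6b. Against cultures with neither factor, Serpinb9 was at -0.05 ± 0.14 with RA (not called) and -2.53 ± 0.15 with TGFb. Gzmb was at 0.43 ± 0.23 (not called) and -1.21 ± 0.23, Serpinb6b at 0.59 ± 0.19 and -3.40 ± 0.22, and Prf1 at 1.11 ± 0.25 and -3.49 ± 0.32. Gzma was higher with each factor (2.26 ± 0.32 and 1.79 ± 0.31). Because these are bulk samples, more cells that carry such transcripts and more transcript per cell cannot be told apart.

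Cytokine genes were divided, with 6 higher and 6 lower of 17 tested (median 0.14). Ccl5, a chemokine stored by effector and memory CD8 T cells, had 1181, 802 and 777 CPM with RA and 46.9, 35.9 and 40.1 CPM with TGFb (4.49 ± 0.24). Csf2, which encodes GM-CSF, had 11.8, 16.3 and 11.99 CPM with RA and 0.651, 0.781 and 0.721 CPM with TGFb (4.22 ± 0.31). Csf1, the macrophage growth factor, and Il4 were higher with RA by 2.65 ± 0.37 and 2.35 ± 0.49. The tumour necrosis family members Lta and Tnf were lower. Lta (lymphotoxin alpha) had 16.5, 14.3 and 22.4 CPM with RA and 41.9, 42.9 and 44.6 CPM with TGFb (-1.29 ± 0.14), and Tnf had a log2 fold change of -0.75 ± 0.15. Ifng (interferon gamma) had 1.82, 2.14 and 1.43 CPM with RA and 9.42, 7.24 and 7.49 CPM with TGFb (-2.15 ± 0.80, adjusted p = 0.0364). That call was lost when any of the 6 libraries was left out, with log2 fold changes of -2.3 to -2.0. Those fits also took in the libraries with neither factor, where Ifng had 29.2, 2.64 and 3.16 CPM. In the fit of only the 2 groups the call was kept.

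Receptors for cytokines included 11 higher and 12 lower genes of 26 tested (median -0.08). Il4ra, the IL-4 receptor chain, had 1406, 1521 and 1419.9 CPM with RA and 343, 359.5 and 383 CPM with TGFb (2.0 ± 0.07). Il6ra, the IL-6 receptor, had 0.228, 0.113 and 0.428 CPM with RA, 20.4, 19.8 and 20.4 CPM with TGFb and 7.06, 8.99 and 12.01 CPM with neither factor (-6.34 ± 0.34 for RA against TGFb). Il18r1, the IL-18 receptor, had 101.01, 68.9 and 60.4 CPM with RA and 364, 373 and 358 CPM with TGFb (-2.25 ± 0.16). Neither receptor's RA values overlapped the TGFb values. Il1rl1, the IL-33 receptor, was lower (-3.47 ± 0.41). Among the receptor chains for the cytokines of the medium, Il2rb, common to IL-2 and IL-15, was not called (-0.10 ± 0.12, adjusted p = 0.492), and Il2ra (CD25) was lower with RA (-0.72 ± 0.07).

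Of 37 effector and memory transcription factors tested, 16 were higher and 16 lower with RA (median 0.12). Tbx21, which encodes the effector factor T-bet, had 189, 189.9 and 133 CPM with RA and 41.8, 37.4 and 41.8 CPM with TGFb (2.08 ± 0.13, adjusted p = 2.0e-08). Its relative Eomes had 128, 104 and 70.7 CPM with RA and 40.1, 31.0 and 39.8 CPM with TGFb (1.45 ± 0.22). Nfil3, a basic leucine zipper factor, had 184, 188 and 140.0 CPM with RA and 16.0, 18.4 and 20.8 CPM with TGFb (3.21 ± 0.13). In cultures with neither factor Tbx21 averaged 114 CPM, Eomes 132 CPM and Nfil3 99.4 CPM, so that the TGFb level was the lowest of the 3 groups for each. Runx1 and Gata3 were higher with RA as well (2.21 ± 0.12 and 1.44 ± 0.09). Foxo1, Lef1 and Id3 were among those lower (-1.04 ± 0.07, -0.85 ± 0.14 and -0.91 ± 0.12). Irf8 had 42.5, 39.3 and 41.6 CPM with RA and 98.7, 121 and 124 CPM with TGFb (-1.48 ± 0.08).

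**Figure D4:**
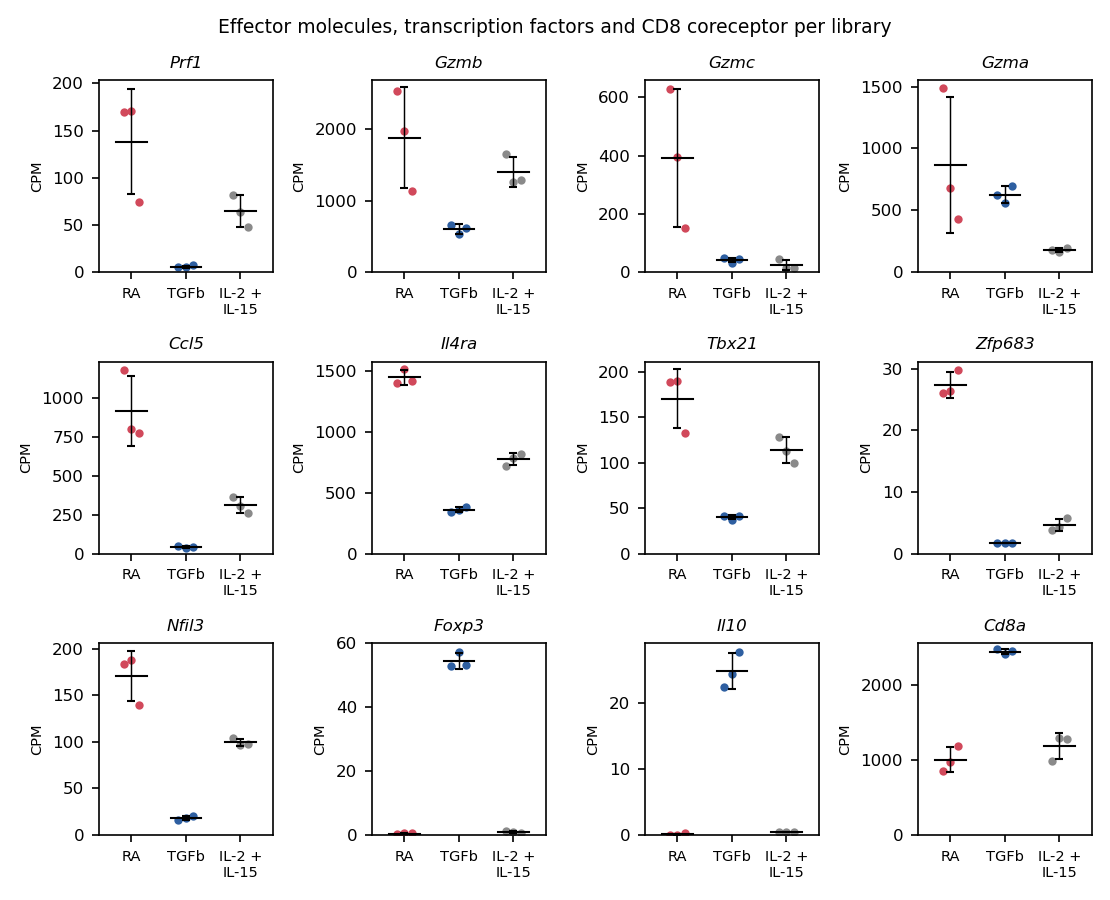
CPM per library for 12 effector, transcription factor and coreceptor genes in RA (red), TGFb (blue) and IL-2 + IL-15 (grey) cultures, on linear y axes from 0; the long bar is the mean and the error bar the SD of 3 libraries. Prf1, Gzmb, Gzmc, Ccl5, Il4ra, Tbx21, Zfp683 and Nfil3 are higher with RA, Foxp3, Il10 and Cd8a are higher with TGFb, and the RA and TGFb points of Gzma overlap.

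Regulatory T cell genes were lower with RA for 9 of 15 tested and higher for 3 (median -0.72). Besides Foxp3, the Ikaros family factors Ikzf4 and Ikzf2 were lower. Ikzf4 (Eos), a Foxp3 partner, had 22.5, 18.2 and 21.7 CPM with RA and 87.0, 99.4 and 99.8 CPM with TGFb (-2.20 ± 0.09). Ikzf2 (Helios) had a log2 fold change of -1.09 ± 0.13, and the checkpoint receptor Ctla4 -0.73 ± 0.11. The members that were higher with RA were Tnfrsf4 (OX40, 1.66 ± 0.08), Tnfrsf18 (GITR, 0.59 ± 0.06) and Ebi3 (1.65 ± 0.13). The CD4 T cell genes Cd4 and Zbtb7b were at 2.51 and 75.6 CPM with RA and at 0.395 and 31.3 CPM with TGFb. The 5 CD4 markers, Foxp3 and Ikzf2 included, summed to 146 to 187 CPM with RA and 243 to 277 CPM with TGFb, with 3 members higher and 2 lower. Foxp3 and Ikzf2 were higher and Cd4 and Zbtb7b lower with TGFb, and the part of CD4 T cells in these values was not tested. Exons on the other strand cover 18.7% of the exon bases of Foxp3.

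The aryl hydrocarbon receptor, a ligand-activated factor that resident cells of barrier tissue use, was lower with RA. Ahr had 2.96, 2.37 and 2.05 CPM with RA and 20.6, 20.3 and 21.2 CPM with TGFb (-3.07 ± 0.17). Its target and repressor Ahrr had 1.09, 0.79 and 0.333 CPM with RA and 36.5, 27.8 and 28.3 CPM with TGFb (-5.36 ± 0.27), and its target Tiparp was lower too (-1.36 ± 0.10). In cultures with neither factor Ahr averaged 0.985 CPM and Ahrr 0.581 CPM, below both other groups for Ahr and near the RA level for Ahrr. Asb2, a ubiquitin ligase subunit in the same list, had 202, 164 and 119.7 CPM with RA and 17.2, 12.8 and 13.5 CPM with TGFb (3.48 ± 0.19). Of the 7 genes tested, 2 were higher and 4 lower (median -1.11), and Cyp1a1 was too low to test.

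Inhibitory receptors were evenly divided, with 8 higher and 8 lower of 18 tested (median -0.09). Cd160 had 220.3, 232 and 157 CPM with RA and 50.4, 43.8 and 43.4 CPM with TGFb (2.15 ± 0.15), and Lag3 was higher by 0.79 ± 0.08. Pdcd1, the PD-1 receptor, had 26.3, 20.8 and 11.7 CPM with RA and 54.2, 52.7 and 51.7 CPM with TGFb (-1.43 ± 0.27). Klrg1, a receptor of terminal effector cells, was low throughout, at 5.46, 4.21 and 1.90 CPM with RA and 0.0766, 0.0411 and 0.24 CPM with TGFb (4.96 ± 0.63, or 5.91 without TGFb replicate 3). On the list of costimulatory receptors, which also holds the ligand Tnfsf14 (LIGHT), 15 of 20 were higher and 5 lower with RA (median 0.64). Tnfrsf8 (CD30) and Tnfsf14 were higher by 1.99 ± 0.13 and 3.02 ± 0.22. Icos, an inducible relative of CD28, was among the 5 lower, with 55.5, 56.6 and 61.1 CPM in RA cultures and 247, 234 and 242 CPM in TGFb cultures (-2.06 ± 0.06).

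Of 20 receptors and adaptors shared with natural killer (NK) cells, 10 were higher and 7 lower with RA (median 0.66). Klra7, an inhibitory Ly49 receptor, had 76.2, 66.5 and 59.0 CPM with RA and 12.8, 11.8 and 15.1 CPM with TGFb (2.34 ± 0.17). The NKG2 genes Klrc1, Klrc2, Klrc3 and Klrk1 were lower with RA. Klrc1 (NKG2A) had 49.8, 37.9 and 27.7 CPM with RA and 179, 169 and 153 CPM with TGFb (-2.12 ± 0.18), and Klrk1 (NKG2D) was lower (-1.52 ± 0.12). Klri2, an NK receptor chain, had 2.73, 2.63 and 1.71 CPM with RA, 89.3, 95.2 and 81.1 CPM with TGFb and 10.9, 10.7 and 7.15 CPM with neither factor. The Ly49 and Klrc genes have close relatives in their clusters, so reads could be split among them. The 7 NK and innate lymphoid markers tested (of 8) summed to 105 to 217 CPM with RA and 95.5 to 113 CPM with TGFb. Of these, 5 were higher and 2 lower. Ncr1, which defines NK cells, had 7, 14 and 2 counts in RA replicates 1 to 3 and 0 in each TGFb library, and the part of such cells in these values was not tested.

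Purinergic genes were higher for 9 and lower for 7 of 19 tested (median 0.80). Besides P2rx7, the ATP-gated channel P2rx4 had 36.6, 33.8 and 33.6 CPM with RA and 5.21, 6.25 and 7.21 CPM with TGFb (2.48 ± 0.13). Art2b, the enzyme that ADP-ribosylates and so opens P2RX7 on T cells, was higher by 1.45 ± 0.14. P2ry12, an ADP receptor, had 308 counts over the RA libraries and 3 over the TGFb libraries, a ratio of 111 (exact 95% interval 37.7 to 542, counting error only). The adenosine receptors differed in direction. Adora2a, which suppresses T cells, had 71.6, 67.0 and 59.8 CPM with RA and 15.7, 15.5 and 16.9 CPM with TGFb (2.04 ± 0.07), and Adora3 had 0.182, 0.263 and 0.143 CPM with RA and 23.1, 20.1 and 20.3 CPM with TGFb (-6.69 ± 0.21). The enzymes that turn ATP into adenosine were split, with Entpd1 (CD39) higher by 0.82 ± 0.17 and Nt5e (CD73) lower (-0.89 ± 0.07).

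Of 17 protease genes and their inhibitors tested, 3 were higher and 10 lower with RA (median -0.46). Those higher were Mmp9, Adamts14 and Adam8 (1.54 ± 0.15). Mcpt2, a mast cell protease beside Mcpt1, had 0.273, 0.188 and 0.0952 CPM with RA and 18.8, 8.96 and 28.3 CPM with TGFb (-6.61 ± 0.69), and Timp2, an inhibitor of metalloproteinases, was lower (-3.65 ± 0.17). Mcpt1 and Mcpt2 were thus high with TGFb and Mmp9 and Adamts14 with RA. Beside them, the 3 neutrophil and mast cell markers tested (of 8) summed to 28.1 to 43.0 CPM with RA and 3.21 to 9.45 CPM with TGFb. Of this, Cpa3, a mast cell carboxypeptidase, averaged 33.6 CPM with RA and 3.54 CPM with TGFb. S100a8 and Csf3r had 0 counts in all 6 libraries, and of the 3 tested members Cpa3 was higher and Fcer1a and Ms4a2 lower with RA. Fcer1a, a chain of the high-affinity IgE receptor, had 0.182, 0 and 0.0952 CPM with RA and 1.53, 0.617 and 2.84 CPM with TGFb (-4.19 ± 0.98, or -5.14 without RA replicate 1, -3.53 without RA replicate 2 and -3.57 without TGFb replicate 3). Ms4a2, another chain of that receptor, had 0 counts over the RA libraries and 33 over the TGFb libraries, at least 10.2-fold lower with RA against a floor of 3 counts over the group. The TGFb libraries had the same order for Fcer1a and Ms4a2 as for Mcpt1 and Mcpt2, with replicate 3 highest and replicate 2 lowest. Cpa3 had another order, with 2.26, 2.47 and 5.89 CPM in TGFb replicates 1 to 3. The part of mast cells in these values was not tested. In the prostaglandin and leukotriene list, 6 of 13 were higher and 3 lower (median 0.22). The leukotriene B4 receptor Ltb4r1 and the prostacyclin receptor Ptgir were higher with RA (2.84 ± 0.19 and 4.14 ± 0.36), and the prostaglandin D synthase Hpgds was lower (-2.05 ± 0.09).

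Most antigen presentation genes were lower with RA. In MHC class II, 8 of 11 were lower and 1 higher (median -0.73). Cd74, the invariant chain, had 1.41, 1.504 and 3.52 CPM with RA and 87.2, 99.0 and 105 CPM with TGFb (-5.53 ± 0.33). H2-Aa, a class II chain, had 0.228, 0.338 and 1.09 CPM with RA and 24.9, 30.6 and 25.5 CPM with TGFb (-5.64 ± 0.36, or -6.51 without RA replicate 3). Their activator Ciita was at 0.865, 0.79 and 0.856 CPM with RA and 3.37, 4.19 and 4.08 CPM with TGFb (-2.21 ± 0.26). Beside this, the dendritic cell genes Siglech and Cd209a had 0 counts and Flt3 0 to 6 counts in each of the 6 libraries. The 3 dendritic cell markers tested (of 8) summed to 217 to 370 CPM with RA and 53.9 to 58.9 CPM with TGFb, mostly Itgax. Of the 3 tested members Itgax was higher and H2-Aa and Zbtb46 were lower with RA. Zbtb46, a transcription factor of classical dendritic cells, had 0.455, 1.02 and 1.33 CPM with RA and 9.04, 11.4 and 10.2 CPM with TGFb (-3.45 ± 0.25, adjusted p = 8.9e-08), and the part of dendritic cells in these values was not tested. The 2 macrophage markers tested (of 8) summed to 6.42 to 11.1 CPM with RA and 9.23 to 11.1 CPM with TGFb, and 0 were called. Fcgr1 and Mertk had 0 counts. In MHC class I presentation, 11 of 16 were lower and 1 higher (median -0.33; 0 higher without RA replicate 2 or TGFb replicate 1), with small changes such as -0.43 ± 0.05 for H2-D1 and -0.49 ± 0.05 for B2m.

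The CD8 coreceptor itself differed. Cd8a had 858, 974 and 1190.1 CPM with RA and 2483, 2415 and 2457 CPM with TGFb (-1.28 ± 0.11), and Cd8b1 had 687, 734 and 789 CPM with RA and 1718, 1599 and 1656 CPM with TGFb (-1.17 ± 0.07). In cultures with neither factor Cd8a had 989, 1300.4 and 1283 CPM, nearer to the RA values. The T cell receptor complex genes Cd3e and Trac were not called (-0.11 ± 0.07, adjusted p = 0.207, and -0.12 ± 0.05, adjusted p = 0.068; Trac was called at -0.15 without RA replicate 1). Of 25 receptor and proximal signalling genes tested, 9 were higher and 10 lower with RA (median -0.11). Of the 8 CD8 T cell markers, 1 was higher and 4 lower, and 2 were lower without TGFb replicate 1. The 5 gamma delta T cell markers tested (of 6) summed to 156 to 254 CPM with RA and 347 to 388 CPM with TGFb. Most of this was Tcrg-C2 (-1.15 ± 0.17). Of the 5 tested, 1 was higher and 3 lower, and 0 were higher without RA replicate 2. The 3 erythroid and stromal markers tested (of 8) summed to 78.2 to 95.4 CPM with RA and 64.9 to 73.3 CPM with TGFb, mostly Pecam1. Of these, 1 was higher (2 without RA replicate 2) and 0 lower.

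Growth genes and division genes moved in opposite directions. Of 22 ribosome biogenesis genes tested, 20 were higher with RA and 1 lower (median 0.68; 2 lower without RA replicate 1). Myc, the growth factor response gene that drives them, had 267, 287 and 287 CPM with RA and 98.8, 105 and 108 CPM with TGFb (1.43 ± 0.05, adjusted p = 6.8e-11). Npm1, a nucleolar protein, had 1505, 1554 and 1246 CPM with RA and 524, 596 and 577 CPM with TGFb (1.34 ± 0.08). In cultures with neither factor Myc averaged 232 and Npm1 1294 CPM, close to the RA levels. By contrast, of 30 mitosis genes 0 were higher and 23 lower (median -0.50), or 15 lower without TGFb replicate 1. The changes were small, such as -0.84 ± 0.15 for Kif20a, -0.68 ± 0.08 for Cenpa and -0.67 ± 0.12 for Foxm1. Of 32 DNA replication genes, 2 were higher and 14 lower (median -0.15), or 9 lower without TGFb replicate 1. The count of higher ones was 1 without RA replicate 2 or TGFb replicate 1 or 2, and 5 without RA replicate 3. Of 10 cyclin and CDK inhibitor genes 2 were higher and 4 lower (median -0.13), with Ccnd1 (cyclin D1) at 0.0455, 0.15 and 0.238 CPM with RA and 3.29, 4.65 and 6.81 CPM with TGFb.

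Metabolic genes were mostly higher with RA than with TGFb, by small amounts. Of 23 glycolysis genes, 19 were higher and 1 lower (median 0.38; 0 lower without RA replicate 1 or TGFb replicate 2 or 3). Slc2a3, the glucose transporter GLUT3, had 469.7, 435 and 404 CPM with RA and 129, 139.6 and 135 CPM with TGFb (1.70 ± 0.06). Hk2, the hexokinase that traps glucose in the cell, had 48.5, 50.5 and 44.1 CPM with RA and 21.3, 21.8 and 19.8 CPM with TGFb (1.19 ± 0.07). In cultures with neither factor Slc2a3 averaged 306 CPM, between the RA and TGFb levels, and Hk2 46.8 CPM, close to the RA level. Of 30 sterol and fatty acid synthesis genes, 21 were higher and 3 lower (median 0.44; 1 lower without RA replicate 2), led by Hmgcs1, which makes the precursor of mevalonate (0.96 ± 0.08). All 21 lay below a 2-fold change. Among sterol export genes 1 of 7 was higher and 3 lower (median -0.16), and 0 were higher without RA replicate 2 or TGFb replicate 2 or 3. The sterol exporter Abca1 was lower (-1.57 ± 0.11). Of 22 amino acid transport and ATF4 target genes, 14 were higher and 2 lower (median 0.43; 1 lower without RA replicate 2 or 3 or TGFb replicate 2 or 3). Slc7a5, the leucine transporter subunit, was higher by 0.93 ± 0.07 and Trib3, a stress pseudokinase, lower (-1.96 ± 0.12). Against cultures with neither factor, the log2 fold changes of Hmgcs1 and Slc7a5 were -0.10 ± 0.08 and -0.59 ± 0.06 with RA. With TGFb they were -1.05 ± 0.08 and -1.52 ± 0.07.

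Other pathways were mixed. Of 36 interferon-stimulated genes tested, 16 were higher and 13 lower with RA (median 0.18). Mx1, an antiviral GTPase, had 62.0, 54.5 and 48.7 CPM with RA and 13.4, 10.7 and 8.09 CPM with TGFb (2.36 ± 0.21). Of 23 immediate early and stress genes, 8 were higher and 4 lower (median 0.02), or 5 higher without RA replicate 2 or TGFb replicate 2. Of 15 BCL2 family genes, 6 were higher and 2 lower (median 0.14; 4 lower without RA replicate 1), with the survival gene Bcl2 higher by 0.50 ± 0.07. Of 14 Notch pathway genes, 3 were higher and 7 lower (median -0.23). Dtx1, a Notch target, was higher with RA (1.00 ± 0.21) and Nrarp, another target, lower (-2.02 ± 0.13), with exons on the other strand over 79.4% of the exon bases of Nrarp.

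**Figure D5:**
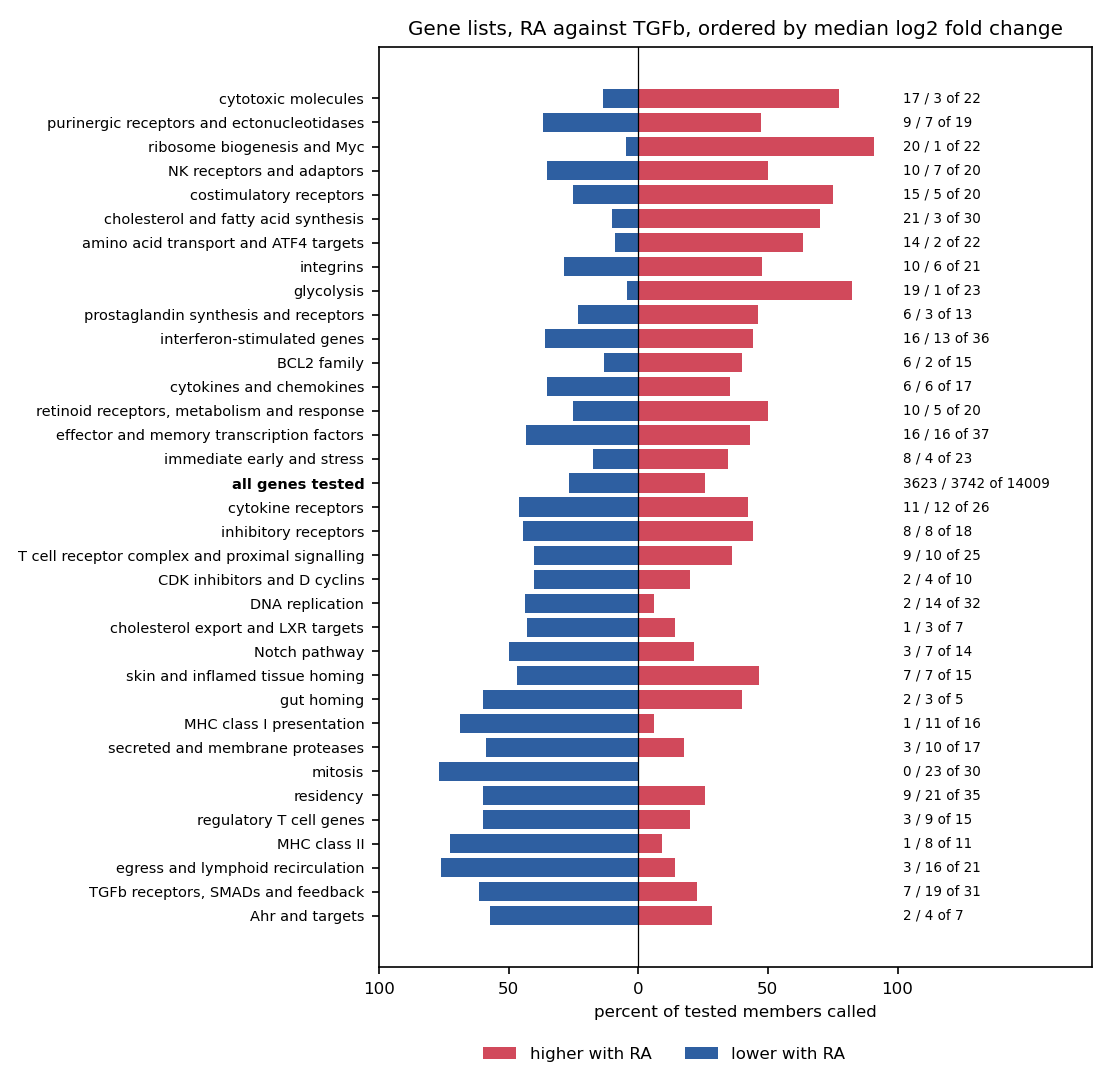
Percent of the tested members of each gene list called higher (red, to the right) or lower (blue, to the left) with RA than with TGFb, ordered from the highest median log2 fold change at the top to the lowest at the bottom. The numbers at the right give members called higher, lower and tested; cytotoxic molecules (17 higher, 3 lower of 22) stand at the top and all genes tested (bold) hold 3623 higher and 3742 lower.

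Some genes moved in opposite directions from the level with neither factor. They were ranked by the smaller of their RA and TGFb changes, and the 6 ranked highest in each direction were taken. Gpr15 (-2.18 ± 0.38 with RA and 6.26 ± 0.17 with TGFb) was opposed too but ranked lower by that rule. So was Adamts14 (1.73 ± 0.29 with RA and -6.03 ± 0.53 with TGFb). Mmp9 was higher with RA than with neither factor (6.5 ± 0.38) and lower with TGFb than with neither (-2.63 ± 0.90). Itih5, a protein that binds hyaluronan, had 81.7, 76.3 and 55.6 CPM with RA, 1.53, 1.40 and 1.44 CPM with TGFb and 6.87, 5.78 and 6.60 CPM with neither factor. Epas1, Igsf5, Grtp1 and B3galt5, a galactosyltransferase, did likewise. Their log2 fold changes against IL-2 + IL-15 were 2.89 ± 0.29, 2.77 ± 0.22, 3.81 ± 0.17 and 2.23 ± 0.19 with RA, and -2.37 ± 0.38, -3.64 ± 0.39, -2.55 ± 0.29 and -2.89 ± 0.31 with TGFb. In the other direction, Il10 was lower with RA (-2.29 ± 0.55) and higher with TGFb (5.58 ± 0.24) than with neither factor. Aqp3, a water and glycerol channel, had 1.87, 1.02 and 2.52 CPM with RA, 86.0, 80.1 and 84.8 CPM with TGFb and 8.90, 11.1 and 12.6 CPM with neither factor. Dlk1, Cx3cr1, Adora3 and Nlrp6, an inflammasome sensor, followed the same course, and the RA against TGFb change of Nlrp6 was -6.65 ± 0.37, or -7.38 without RA replicate 1. All 12 genes were called in both comparisons against IL-2 + IL-15, as the choice required.

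Other genes moved alike with either factor. Among those whose direct log2 fold change was within 0.25 of 0, the 6 in each direction were taken by the same ranking. Vipr2, a receptor for vasoactive intestinal peptide, had 17.1, 9.97 and 9.94 CPM with RA, 15.9, 12.8 and 14.7 CPM with TGFb and 0.939, 0.285 and 0.645 CPM with neither factor. The difference between RA and TGFb was -0.23 ± 0.21 (adjusted p = 0.362). Ly6c2, the surface antigen Ly6C of circulating memory cells, had 866, 709 and 594 CPM with RA, 813, 721 and 718 CPM with TGFb and 1716, 1575 and 1468 CPM with neither factor (-0.06 ± 0.16 for RA against TGFb, adjusted p = 0.795). For both genes the RA and TGFb values overlapped and lay apart from the values with neither factor. Havcr2, the inhibitory receptor TIM-3, had 31.9, 25.5 and 10.04 CPM with RA, 26.6, 21.2 and 22.6 CPM with TGFb and 77.4, 47.2 and 36.3 CPM with neither factor, with the RA and TGFb values overlapping. AA467197, Tnfsf11 (RANKL), Prrt1, Coro2a and Optn were likewise higher with each factor, and Plxnc1, Gucy2e, Sgk1 and Atp8b4 lower. A difference that was not called does not show equal levels. Without RA replicate 1, Vipr2, AA467197 and Sgk1 were called at -0.52, -0.35 and -0.50, and Atp8b4 was called at 0.33 without RA replicate 3.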

How the data were processed

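RNA from 12 cultures of mouse CD8 T cells was made into TruSeq stranded mRNA libraries, per the labels' protocols. The authors deposited raw counts per gene for each library, with STAR, featureCounts and GRCm38 named per the submitters' processing notes. Tool versions, the annotation and the strand setting of the counting are not given in the sources used here. Of 46078 genes listed, 45143 (98.0%) were found in GENCODE M21, used for coordinates.

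Counts were filtered with filterByExpr (minimum count 10), scaled by TMM and fitted with edgeR 4.0.16 (R 4.3.3), with a mean for each of the 4 groups and 8 residual degrees of freedom. RA minus TGFb was tested with the quasi-likelihood F test, with Benjamini-Hochberg adjustment over 14009 genes. The SE is the log2 fold change divided by the root of F which may be too small for genes near 0 in a group. DESeq2 1.42.0, another scaling, no filter, only the 2 groups, a replicate block, a 1.5-fold threshold (glmTreat) and leaving out each library were the alternatives. The fit was also run on simulated data with far fewer changed genes than were called here, which does not test it at that share.

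Genes named were a panel of 24, the 12 highest and 12 lowest called genes at 5 CPM or more without overlap, 6 opposed and 6 shared genes a direction, and from each list up to 4 called members, by lowest adjusted p. Further list members were named after their values were seen. A few genes that these rules name are not reported here. The members and lists were chosen with earlier results of these data known. Promoter shares leave out chromosome 18. Intervals cover counting error only.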

Additional observations from a re-analysis of the deposited data

How the results depend on the processing

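With a threshold of 1.5-fold (glmTreat), RA against TGFb called 929 genes higher and 1038 lower, RA against IL-2 + IL-15 255 higher and 382 lower, and TGFb against IL-2 + IL-15 620 higher and 605 lower. Leaving out each library gave 3217 to 3932 genes higher and 3181 to 3828 lower for RA against TGFb. DESeq2's Wald test called 3494 higher and 3591 lower, and the fit of only the 2 groups 3261 and 3392. Of 182 genes named in the text, 164 were called, and 0 of these changed sign under any alternative run. The call was lost for 21 with the 1.5-fold threshold, for 1 with only the 2 groups (Cd69; Ms4a2 was too low to test there) and for 2 without at least 1 library (Cd69 and Ifng). The share of counts in the 50 highest genes was 2.19 percentage points higher with RA, and that in the 100 highest 2.95. With 250-base promoter windows AGGTCA stood in 14.02% of all windows, in 1 of 7 windows of the 12 highest genes (2 in the 300-base windows; CAGACA also 1 against 2) and in 6 of 13 of the 12 lowest. Deviations of same-numbered RA and TGFb libraries correlated at 0.215, 0.0358 and -0.00391, and those of differently numbered libraries at -0.209 to 0.163. The numbers were not taken as pairs in the main fit, and these values do not settle whether they are. With a replicate block, 3711 genes were higher and 3897 lower, no named gene changed its call, and BCL2 family genes lower with RA numbered 4. Changes under 1.5-fold, and folds of genes with few counts in a group, are the least certain.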

Other observations

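The group with both factors (TGFb + RA, n = 3) shows where genes that differ between the single factors lay when both were given. These are means ± SD with no test of the differences. Ccr9 averaged 1112 ± 61.7 CPM with both factors, 881 ± 173 CPM with RA and 16.1 ± 2.07 CPM with TGFb. P2rx7 averaged 299 ± 36.1 CPM with both factors, 611 ± 61.6 CPM with RA and 1.76 ± 0.635 CPM with TGFb. Itgae averaged 3158 ± 121 CPM with both factors, 188 ± 78.8 CPM with RA and 2028 ± 30.9 CPM with TGFb. So the Ccr9 and Itgae means with both factors lay above those of either factor alone, and that of P2rx7 lay between them.

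Among effector genes, Prf1 averaged 37.6 ± 2.20 CPM with both factors, 138 ± 55.9 CPM with RA and 5.73 ± 1.07 CPM with TGFb. Mmp9 averaged 1.13 ± 0.737 CPM with both factors, 159 ± 69.5 CPM with RA and 0.277 ± 0.095 CPM with TGFb. For both genes the mean with both factors lay between those of RA and TGFb, and for Mmp9 it was far below the RA mean. In cultures with neither factor Prf1 averaged 64.3 ± 17.0 CPM and Mmp9 1.75 ± 0.80 CPM. Among the genes low with RA alone, Gpr15 averaged 0.74 ± 0.0768 CPM with both factors, 0.345 ± 0.0166 CPM with RA and 122 ± 28.4 CPM with TGFb. Il10 averaged 0.571 ± 0.223 CPM with both factors, 0.104 ± 0.122 CPM with RA and 24.8 ± 2.70 CPM with TGFb. Foxp3 averaged 214 ± 40.9 CPM with both factors, 0.468 ± 0.1 CPM with RA and 54.3 ± 2.48 CPM with TGFb. With neither factor Gpr15 averaged 1.57 CPM and Il10 0.512 CPM. With both factors the Gpr15 mean lay between those with RA and with neither factor and the Il10 mean was close to that with neither, both far below TGFb alone, whereas the Foxp3 mean was above those of either factor alone.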
